A study of Mus musculus with 6 samples.

Results

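The expression of 10 RNA-binding regulators of alternative splicing in muscle was examined: Rbm24, Rbm38, Rbm20, Mbnl1, Mbnl2, Mbnl3, Celf1, Celf2, Rbfox1 and Rbfox2. They were taken by gene symbol, and all 10 were found among the 23279 named genes of the array, each with 1 probe set. Expression was measured in primary myoblasts, the precursor cells of skeletal muscle fibres, from limb muscles of C57bl6N mice. Every culture carried Pax7-CreERT2, a Cre recombinase that tamoxifen switches on and that is made only where Pax7 is expressed, and 1 Beta-catenin allele with exon 3 between loxP sites. All cells were kept for 5 passages with 20% FBS and 2 ng/ml bFGF, then differentiated for 24 hours in 2% HS. The 3 activated cultures received 4-OH tamoxifen, which excises exon 3 and leaves a stabilised Beta-catenin, the effector of canonical Wnt signalling; the 3 control cultures of the same genotype received its solvent, ethanol. No culture without Cre was given 4-OH tamoxifen here, so effects of the agent and of recombination cannot be told apart. Age and sex of the mice, the number of animals and the dose are not stated in the labels.

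Alternative splicing gives one gene several mature messages, and muscle uses it to exchange embryonic for adult isoforms of sarcomere, ion channel and membrane proteins. Each regulator binds a short motif in the pre-mRNA, and its position relative to an exon decides whether that exon is kept or skipped. Mbnl proteins favour adult isoforms and are trapped by repeat RNA in myotonic dystrophy, Celf proteins oppose them on many exons, Rbfox proteins bind UGCAUG, and Rbm20 controls the splicing of titin. The probe sets summarise whole genes, so the values below are levels of the regulators' messages and not isoform ratios or protein.

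Promoter sequence is shown for the 3 regulators with the largest differences between groups that had an entry in the RefSeq promoter table (GRCm38.p6), Rbm24, Rbm38 and Celf2. Each window covers the 250 bases before a gene start, 5′ to 3′ on the gene's strand, and capitals mark E-boxes (CANNTG, the letters bound by Myod1 and Myog) and TCF/LEF letters (AACAAAG or ATCAAAG or TACAAAG or TTCAAAG, bound by the nuclear partners of Beta-catenin), on either strand. Rbm24 lies at chr13:46418050-46418299 (plus strand), Rbm38 at chr2:173021652-173021901 (plus strand) and the most downstream of 5 Celf2 starts, shown because it held both kinds of letters, at chr2:6721663-6721912 (minus strand).
Rbm24: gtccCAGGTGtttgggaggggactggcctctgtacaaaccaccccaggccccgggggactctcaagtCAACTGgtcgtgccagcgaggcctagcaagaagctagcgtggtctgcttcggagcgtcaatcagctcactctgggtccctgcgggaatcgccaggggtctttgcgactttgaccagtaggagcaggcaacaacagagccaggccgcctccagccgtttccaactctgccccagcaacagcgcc
Rbm38: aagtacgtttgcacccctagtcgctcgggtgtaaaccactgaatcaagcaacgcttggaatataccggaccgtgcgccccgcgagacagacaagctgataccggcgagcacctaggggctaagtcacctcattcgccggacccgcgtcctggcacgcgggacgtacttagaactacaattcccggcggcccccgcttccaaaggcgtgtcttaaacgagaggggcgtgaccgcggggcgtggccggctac
Celf2: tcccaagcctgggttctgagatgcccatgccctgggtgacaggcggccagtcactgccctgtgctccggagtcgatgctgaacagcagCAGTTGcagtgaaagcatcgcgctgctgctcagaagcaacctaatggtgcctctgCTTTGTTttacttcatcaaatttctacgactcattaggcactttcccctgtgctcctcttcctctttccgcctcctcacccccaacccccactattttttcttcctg

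The Rbm24 window held 2 E-boxes, starting 246 and 183 bases before the gene start, and no TCF/LEF match. The Rbm38 window held neither. The Celf2 window held an E-box 162 bases and a TCF/LEF match 107 bases before its start. Entries were found for 8 of the 10 regulators (all but Rbm20 and Rbfox2), with 14 windows. An E-box lay in 7 of the 14 windows (4 of 8 genes), against 66.2% of all 32851 windows of this length in the table. Of these 7 windows 4 belong to Celf2, and 2 of those overlap and hold the same pair of E-boxes. TCF/LEF letters lay in 2 of the 14 windows, 1 each of Celf2 and Rbfox1, against 14.8% of all windows, and a MEF2 site in 0, against 0.508%. The letters can overlap and a match is not evidence of binding.

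In these cultures 8 of the 10 regulators had a higher mean in activated than in control cells, as 40.3% of all genes did, with a median log2 difference of 0.47 against -0.08 for all genes tested. None passed the test over all genes (limma with Benjamini-Hochberg adjustment, adjusted p 0.411 to 0.966), nor did any other gene, so 0 of 10 stands against a background of 0%. When replicate number entered the fit as a block, 31 genes or 0.133% passed and again 0 of the 10 did (adjusted p 0.0864 to 0.936). An unadjusted p under 0.05 was found for 1830 genes or 7.86% in either direction. At that level 4 regulators were higher (Rbm24, Rbm38, Rbm20 and Celf2), where 4.44% of all genes were higher. With the block they were 5, Rbfox2 being added (unadjusted p = 0.0481 against 0.0844), where 9.63% of all genes were higher. For 6 regulators every activated array lay above every control array, which held for 5.40% of all genes. The regulators differed by up to 1.22 on the log2 scale, and no direction below rests on a passed test in the fit of all 6 arrays without the block. In bulk cultures fewer cells of a type and less RNA per cell cannot be told apart.

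**Figure D1:**
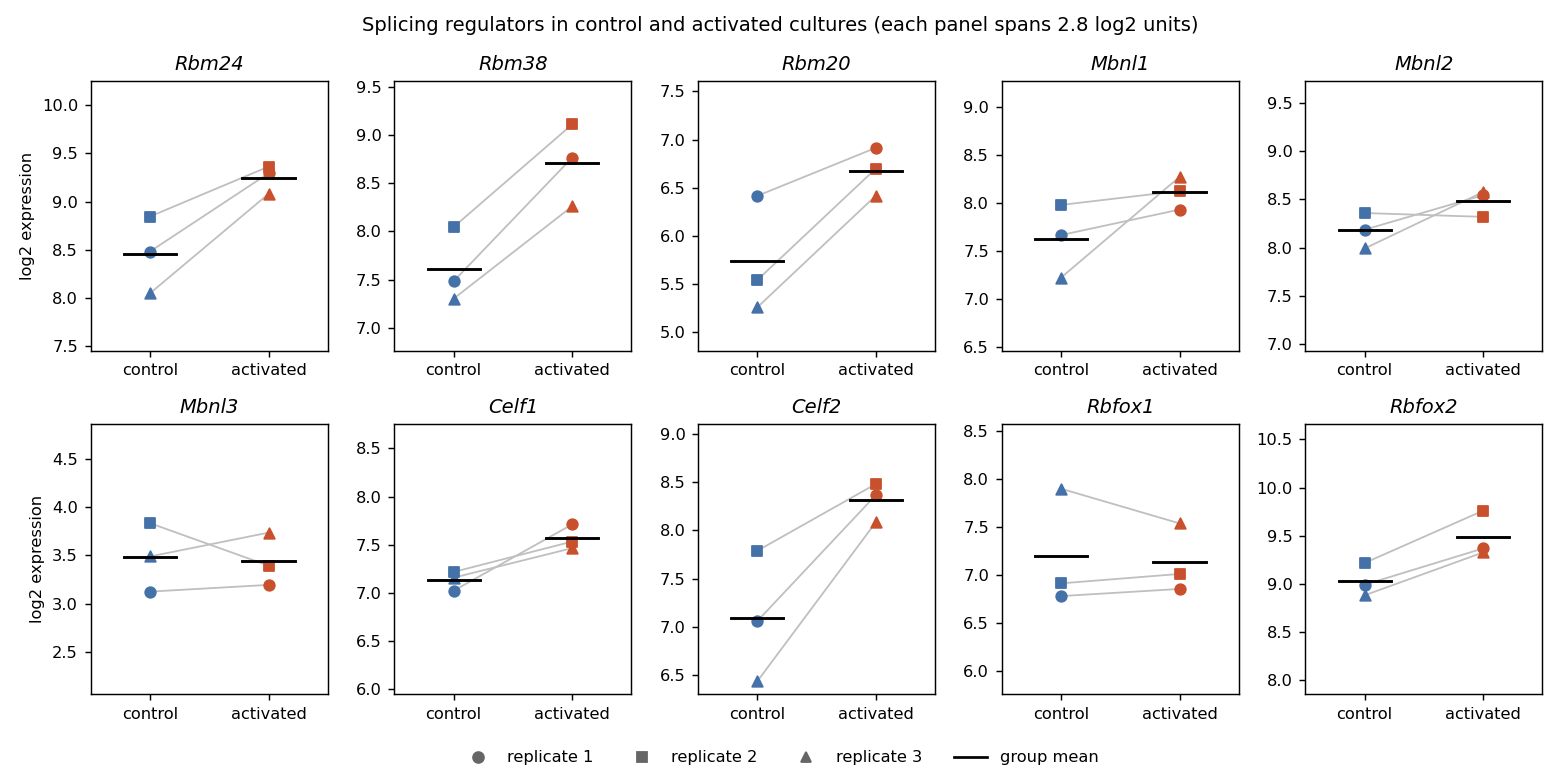
Log2 expression of the 10 regulators on the 6 arrays, 1 panel per gene; points are single cultures, grey lines join arrays with the same replicate number and black bars are group means (n = 3). Activated arrays lie above all control arrays for Rbm24, Rbm38, Rbm20, Celf1, Celf2 and Rbfox2, while the groups overlap for the 3 Mbnl genes and Rbfox1.

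Rbm24 and Rbm38 are closely related proteins with a single RNA-recognition motif. Rbm24 promotes the inclusion of muscle exons and binds the message of the myogenic factor Myog. Taken in the order of replicates 1, 2 and 3, here and below, its log2 expression was 8.48, 8.84 and 8.05 in control and 9.29, 9.36 and 9.08 in activated cultures. The activated cultures were all higher and varied less, with means of 8.46 ± 0.40 (SD, n = 3) and 9.24 ± 0.15. Activated minus control came to 0.79 ± 0.26 (SE) in log2 units, or 1.73-fold (limma, adjusted p = 0.512).

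Rbm38, a p53 target that binds the message of the cell cycle inhibitor Cdkn1a, was at 7.48, 8.05 and 7.30 in control and at 8.77, 9.11 and 8.26 in activated cultures. The lowest activated culture, replicate 3, lay just above the highest control culture, replicate 2. The difference was 1.10 ± 0.31 (SE), or 2.15-fold, and its 95% interval ran from 0.37 to 1.83 (limma, adjusted p = 0.411, and 0.0864 with the replicate block). By replicate number the difference was 1.28, 1.07 and 0.96, the narrowest spread among the 4 regulators with an unadjusted p under 0.05. For Rbm24 the same 3 differences were 0.81, 0.52 and 1.03.

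Rbm20, which represses titin exons and whose mutation can cause dilated cardiomyopathy, was at 6.42, 5.54 and 5.26 in control and at 6.92, 6.70 and 6.42 in activated cultures. Control replicate 1 and activated replicate 3 had nearly the same value, so the groups only just failed to overlap. The difference was 0.94 ± 0.34 (SE), or 1.92-fold (limma, adjusted p = 0.558), and ran from 0.70 without control replicate 3 to 1.28 without control replicate 1. Its known target Ttn, the gene of titin, differed by 1.32 ± 0.47 at the level of the whole message (limma, adjusted p = 0.554). The Ttn groups overlapped, with control replicate 3 at 9.94 and activated replicate 2 at 9.81. Ttn was chosen as a known target of Rbm20 and lies outside the naming rule.

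The muscleblind genes differed less. Mbnl1, the main muscleblind protein of muscle, was at 7.67, 7.98 and 7.22 in control and at 7.93, 8.12 and 8.27 in activated cultures. Activated replicate 1 lay below control replicate 2, so the groups overlapped. The difference was 0.49 ± 0.26 (SE; limma, adjusted p = 0.694) and 0.29 without control replicate 3, the lowest array.

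Mbnl2, which is best known for its part in brain splicing, was at 8.19, 8.36 and 7.99 in control and at 8.54, 8.32 and 8.58 in activated cultures. Replicate 2 was slightly lower after activation and the other two pairs were higher. The difference was 0.30 ± 0.22 (SE) with a 95% interval from -0.20 to 0.80 (limma, adjusted p = 0.748). Mbnl3, which in cultured myoblasts opposes differentiation, was at 3.12, 3.83 and 3.49 in control and at 3.19, 3.39 and 3.74 in activated cultures. The groups covered the same range, with a difference of -0.04 ± 0.27 (SE; limma, adjusted p = 0.966; 95% interval -0.67 to 0.59). All 6 Mbnl3 values lay under their array's median over all probe sets (4.04 to 4.36), and detection calls are not stated for these arrays.

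The Celf proteins bind GU-rich RNA. Celf1, whose excess in myotonic dystrophy favours embryonic isoforms, was at 7.02, 7.22 and 7.16 in control and at 7.71, 7.53 and 7.46 in activated cultures. The groups did not overlap and each was tight, with SDs of 0.10 and 0.13. The difference was 0.44 ± 0.20 (SE), or 1.35-fold (limma, adjusted p = 0.652).

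Celf2 had the largest difference of the 10. It was at 7.06, 7.79 and 6.43 in control and at 8.37, 8.48 and 8.08 in activated cultures, means of 7.09 ± 0.68 (SD, n = 3) and 8.31 ± 0.20. Control cultures were spread over more than a log2 unit while activated cultures lay close together. The difference was 1.22 ± 0.36 (SE), or 2.33-fold, with a 95% interval from 0.38 to 2.05 (limma, adjusted p = 0.433), and 0.89 without control replicate 3. Celf1 and Celf2 were thus both higher in each of the 3 replicate-numbered pairs.

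Celf2 and Rbfox1 are also made in neurons, and Celf2 in lymphocytes, so markers of those cells were read beside them. Of 7 leukocyte markers 1 was higher and 6 lower in activated cultures. Their summed log2 level ran from 6.91 to 8.14 in control and from 6.82 to 7.46 in activated cultures, with Ptprc, the pan-leukocyte antigen, at 2.36 to 2.75 on all arrays, under every array's median. Of 6 measured neural markers 2 were higher and 4 lower, and their summed level ran from 7.09 to 8.18 and from 8.81 to 9.39. That sum was led by the tubulin Tubb3, at 4.85, 7.60 and 4.60 in control and at 8.78, 8.56 and 9.19 in activated cultures. The neuronal synaptic gene Snap25 was at 2.70 to 3.36 on all arrays. Markers in these lists were not all this low. The neuronal marker Rbfox3 was at 4.84 to 5.69, above every array's median. The leukocyte marker Laptm5, at 4.33 to 5.05, lay above its array's median on each array. Snap25 and Rbfox3 were chosen as cell markers and lie outside the naming rule, as does Cd68 below. The part of other cells in the Celf2 difference was not tested.

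Rbfox1 and Rbfox2 behaved differently from each other in these values, though the contrast between them was not tested. Rbfox1 was at 6.78, 6.91 and 7.90 in control and at 6.86, 7.01 and 7.54 in activated cultures. The replicate 3 array was the highest in both groups, and the groups overlapped. The difference was -0.06 ± 0.36 (SE; limma, adjusted p = 0.961; 95% interval -0.90 to 0.77), and 0.29 without control replicate 3.

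Rbfox2, which is needed for myoblast fusion and acts on Mef2d exons, was at 8.99, 9.22 and 8.88 in control and at 9.37, 9.76 and 9.33 in activated cultures. All activated cultures were higher, with pair differences of 0.38, 0.54 and 0.45. The difference was 0.46 ± 0.23 (SE), or 1.37-fold (limma, adjusted p = 0.680).

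The results depended on the scaling of the arrays. The spread of values within an array ranged from an SD of 1.72 to 2.12 and was highest in replicate 2 of both groups, and its part in this was not tested. Control replicate 2 held the highest control value for 8 of the 10 regulators and control replicate 3 the lowest for 7. The same counts over all genes were not taken. After quantile normalization the counts for the regulators were 3 and 5. The median difference of the 10 was then 0.19, and 0.15 after cyclic loess, while the median of all genes was -0.014 and -0.0032. Without overlap between groups remained 3 regulators under either scaling, Rbm24, Rbm38 and Celf2, against 6.36% and 6.53% of all genes.

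Celf2 still had the largest difference, with 0.96 after quantile normalization and 0.89 after cyclic loess. Rbm38 differed by 0.79 and 0.73, Rbm20 by 0.76 and 0.78, and Rbm24 by 0.42 and 0.35. An unadjusted p under 0.05 (limma) was left for Rbm38 and Celf2 under either scaling. At that level 4.00% and 4.20% of all genes were higher. Mbnl1 differed by 0.20 and 0.14, Celf1 by 0.17 and 0.14 and Rbfox1 by -0.35 and -0.34. Mbnl2 (-0.0037 and -0.089) and Mbnl3 (0.16 and 0.16) turned sign under both, and Rbfox2 (0.08 and -0.01) under cyclic loess. Centring each array on its median instead moved the median of all genes to 0.04, and all 10 regulators were then higher, against 55.6% of all genes.

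**Figure D2:**
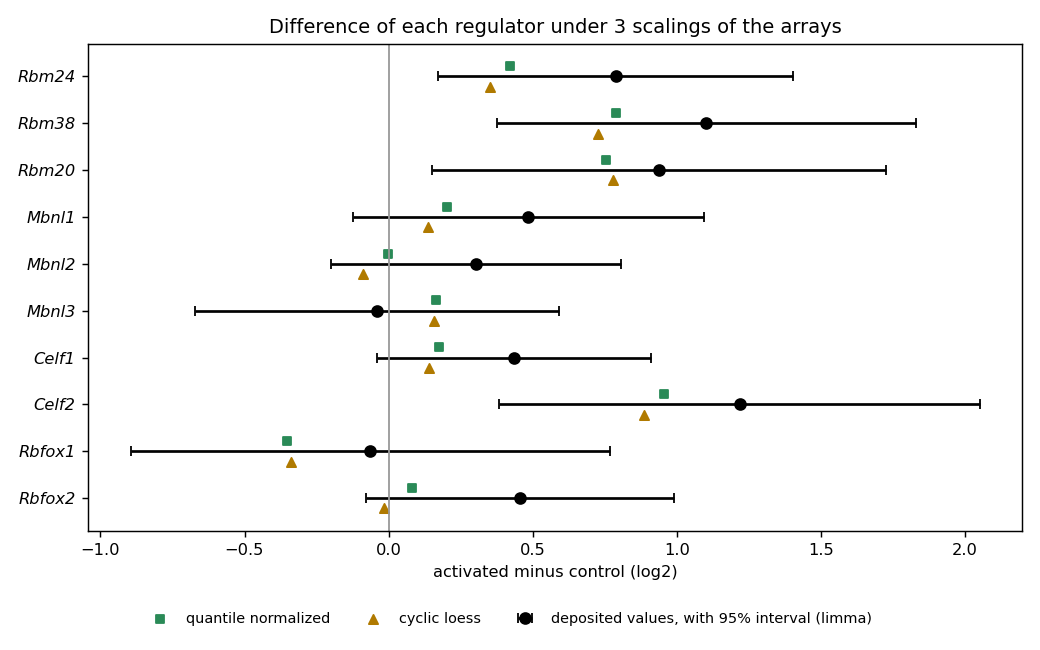
Activated minus control difference (log2) of each regulator with the deposited values (black points, bars are limma's 95% interval, n = 3 per group), after quantile normalization (squares) and after cyclic loess (triangles). Celf2, Rbm38, Rbm20, Rbm24, Mbnl1 and Celf1 stay above 0 in all 3 settings, and Mbnl2 and Rbfox2 move to about 0.

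Other families of splicing factors were read beside the 10. Lists were chosen with earlier results of these data known and are described by counts only, beside 40.3% of all genes higher in the deposited values. That share was 55.6% after median centring, 48.2% after quantile normalization and 49.6% after cyclic loess. Of 31 measured regulators of alternative splicing outside the 10, 8 were higher and 23 lower, with a median log2 difference of -0.15 (13 higher, 18 lower and -0.02 after median centring). Those with the smallest p were Srrm4, Khdrbs1 and Qk. Srrm4, a neuronal microexon regulator, had control and activated means of 4.75 ± 0.16 and 5.34 ± 0.23 (SD, n = 3). Khdrbs1, known as Sam68, had means of 8.06 ± 0.15 and 7.48 ± 0.23, and Qk, known as Quaking, of 8.78 ± 0.42 and 9.44 ± 0.10. None passed over all genes (limma, smallest adjusted p = 0.589).

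Serine/arginine-rich proteins, many but not all of which promote exon inclusion, were lower for all 12 measured members, with a median of -0.33. After quantile normalization 11 of 12 were lower, with a median of -0.67, and after median centring 8 of 12 were lower. Srsf10 was at 7.77, 7.58 and 7.21 in control and at 6.64, 6.56 and 7.15 in activated cultures. Activated replicate 3 reached nearly the lowest control value, and the difference was -0.74 ± 0.26 (SE; limma, adjusted p = 0.558). Tra2b differed by -0.57 ± 0.26 and Tra2a by -0.46 ± 0.30. Heterogeneous nuclear ribonucleoproteins, which often repress exons, had 8 of 21 members higher and 13 lower, with a median of -0.17, a share close to that of all genes. After quantile normalization 18 of 21 were lower, and after median centring 10 were higher and 11 lower, with a median of -0.04. Hnrnpa3 differed by -0.80 ± 0.31, Hnrnpd by -0.58 ± 0.30 and Hnrnpm by -0.50 ± 0.26. No member of either family passed.

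**Figure D3:**
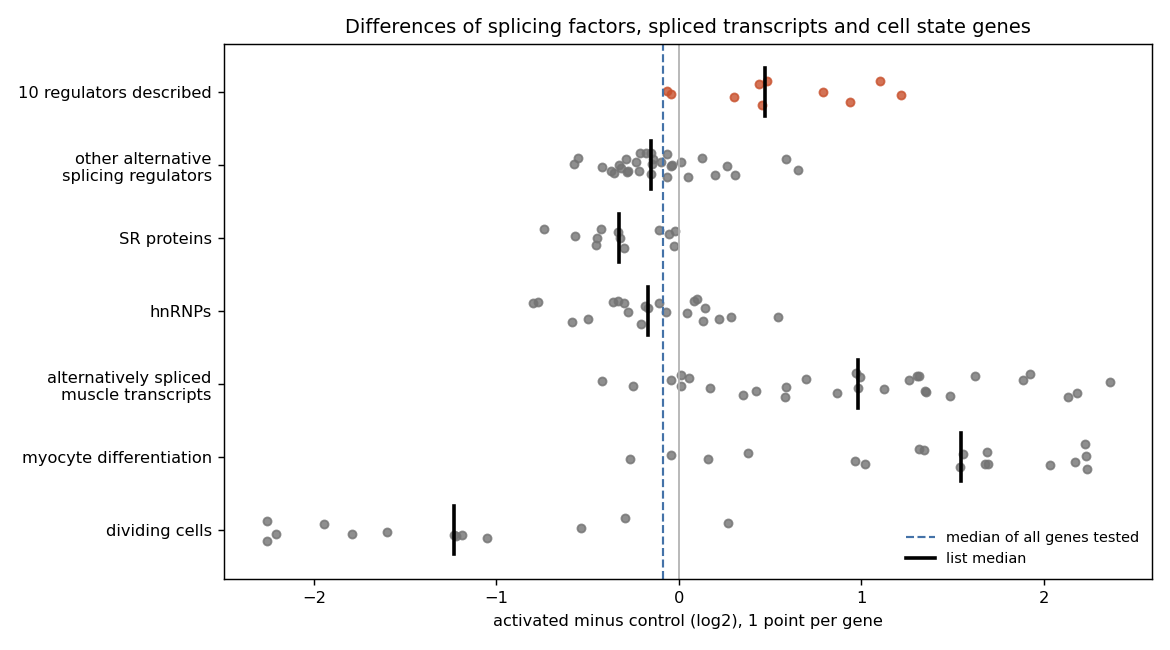
Activated minus control difference (log2) of each gene in 7 lists, 1 point per gene with vertical scatter for legibility; black bars are list medians and the dashed line is the median of all genes tested (-0.08). The 10 regulators have a median of 0.47, SR proteins of -0.33, alternatively spliced muscle transcripts of 0.98 and genes of dividing cells of -1.23.

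Muscle transcripts with known isoform switches were mostly higher as whole messages: 26 of 29 measured, with a median of 0.98 (24 of 29 and 0.68 after quantile normalization). Dmd, the gene of dystrophin, was at 5.62, 5.45 and 5.44 in control and at 8.64, 8.20 and 6.76 in activated cultures. All activated cultures were higher, with replicate 3 well below the other two, and the difference was 2.36 ± 0.46 (SE; limma, adjusted p = 0.256). Nrap, a scaffold of myofibril assembly, differed by 2.13 ± 0.44 (limma, adjusted p = 0.278). With the replicate block the Nrap difference was the same and its SE was 0.19, which passed (limma, adjusted p = 0.0444). That call was lost with the block after quantile normalization (adjusted p = 0.0641). Bin1, which shapes T-tubules and is an Mbnl1 splicing target, differed by 1.26 ± 0.26. The 2 messages that Rbm24 or Rbm38 bind, Cdkn1a and Myog, differed by 2.23 ± 0.65 and 2.22 ± 0.72 (limma, adjusted p = 0.432 and 0.502). Whether isoforms of these transcripts differed was not analysed here.

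Genes of cell state differed alongside the regulators. Of 18 genes of myocyte differentiation 16 were higher, with a median of 1.55, and the smallest p were those of Des, Myh3 and Myh8 (1.56 ± 0.36, 1.32 ± 0.33 and 2.17 ± 0.59, SE). Of 13 measured genes of dividing cells 12 were lower, with a median of -1.23, and the smallest p were those of Top2a, Bub1 and Ccna2 (-2.26 ± 0.50, -1.95 ± 0.47 and -2.21 ± 0.58). None of these passed over all genes without the block. On control replicate 3 the differentiation genes lay furthest down, with a list median of -1.91 relative to their own means, and the 10 regulators were also lowest there, at -0.51. On activated replicate 2 both were highest, at 1.39 and 0.37. These medians are of the deposited values. Activated replicate 2 held the highest activated value for 4 of the 10 regulators and the lowest for 1, and after quantile normalization for 0 and 6. Here too the counts over all genes were not taken. The part of the differentiation state in the regulators' differences was not tested.

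**Figure D4:**
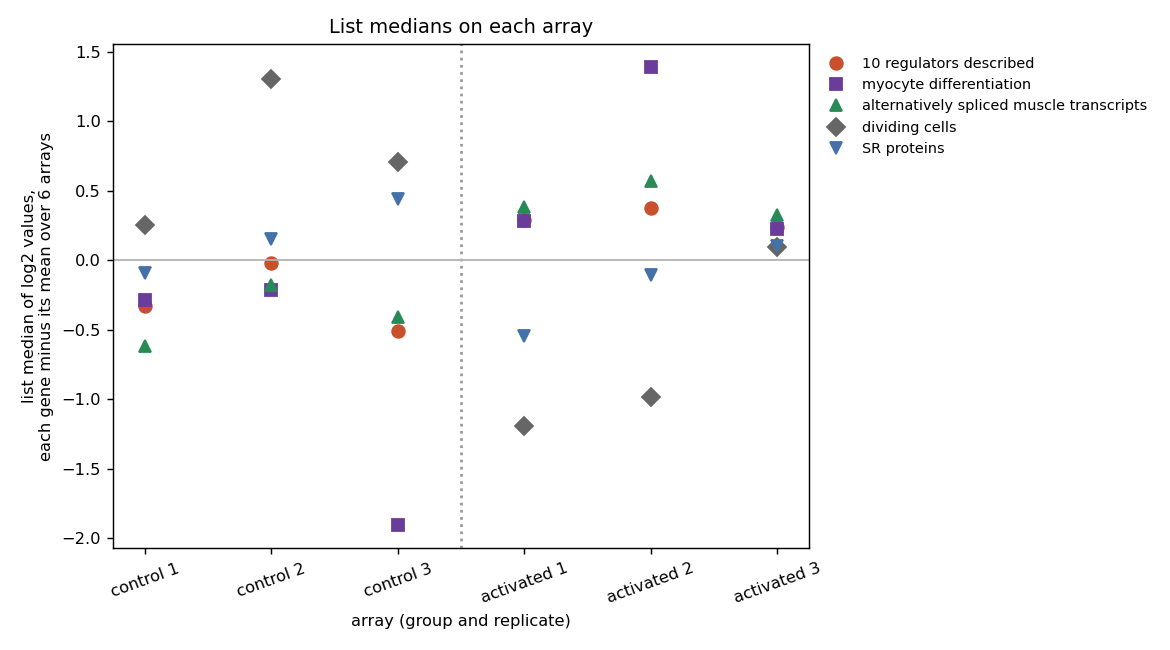
Median of log2 values for 5 gene lists on each array, each gene taken relative to its own mean over the 6 arrays; the dotted line parts control from activated arrays. The regulators range from -0.51 on control replicate 3 to 0.37 on activated replicate 2, and the differentiation list from -1.91 to 1.39 on the same arrays.

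The genes with the most similar profile were sought for 4 regulators, by the root-mean-square distance between array values after centring each gene on its own mean over the 6 arrays. For Rbm24 these were Cnn3, an actin-binding calponin (0.08 log2 units), Smad1, a BMP signal transducer (0.09), and Zfp275 (0.09). For Mbnl1 they were Rab21, an endosomal GTPase (0.07), Pcyox1 (0.09) and Dnajc14 (0.10), and for Mbnl3 they were 1600020E01Rik (0.04), Rassf5 (0.05) and Cd200 (0.08). For Rbm20 the nearest were more distant, Atp11b (0.15), Bbs5 (0.16) and 9430091E24Rik (0.17). Within 0.2 log2 units lay 131 genes for Rbm24, 213 for Mbnl1 and 308 for Mbnl3, but 9 for Rbm20, whose 6 values varied more.

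The labelled cell type and treatment were checked by markers. Myod1, the myogenic regulator, was at 8.64 to 10.2 on the 6 arrays. Ptprc, the endothelial Pecam1 (2.52 to 3.32) and the fibroblast Pdgfra (2.70 to 3.35) lay under every array's median, but other markers in these lists did not. The fibroblast list, with Col3a1 at 5.28 to 7.57, had 2 of 8 markers higher and a summed log2 level of 7.91 to 8.50 in control and 7.45 to 8.37 in activated cultures. The endothelial list had 1 of 7 higher and sums of 6.46 to 6.61 and 6.11 to 6.36, and the leukocyte marker Cd68 was at 4.91 to 7.33. The smooth muscle and pericyte list had 2 of 7 higher and sums of 9.92 to 11.1 and 9.84 to 11.0, with the pericyte gene Rgs5 at 9.58 ± 0.90 (SD, n = 3) and 7.80 ± 0.83 and the actin Acta2 at 9.08 ± 0.42 and 10.2 ± 0.67. The adipocyte list had 2 of 6 higher and sums of 6.13 to 6.71 and 6.49 to 6.91, with Pparg at 3.80 ± 0.23 and 5.08 ± 0.83. The part of other cells in the regulators' differences was not tested. Axin2, a feedback target of Beta-catenin, was at 4.55, 3.81 and 4.58 in control and at 5.50, 5.85 and 6.54 in activated cultures (limma, adjusted p = 0.290). Ctnnb1 differed by 0.02 ± 0.31 (SE), and its whole-gene probe set does not check the loss of exon 3. Mean correlations of an array with the others were lowest for control replicate 3, at 0.896. The 3 cultures per group are independent per the series' design text, which does not say whether they share animals, so the p-values reflect variation among cultures.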

How the data were processed

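The deposited table holds log2 expression values for 24479 probe sets on 6 Affymetrix whole-transcript arrays, 1 column per array; per the submitters' processing notes RMA and Partek are listed, without version or role. Array design, detection calls and build are unknown (not given in the sources used here). Platform annotation gave 1 symbol to 23281 probe sets and none to 1198. Of 2 symbols with several probe sets the brightest was used, which left 23279 genes. From these values limma 3.58.1 (R 4.3.3) fitted group as the only term over all genes, two-sided, with Benjamini-Hochberg adjustment, no filter and no pseudocount. The fit was tried on simulated arrays with independent noise, which leaves out the shared deviations of same-numbered arrays described below. That outcome is not used here. An exact permutation test of 3 against 3 cannot go below 0.1 and was not used.

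The regulators and gene lists were chosen with earlier results of these data known. Named genes were all 10 regulators, the 3 of each list with the smallest p, the 3 nearest profiles of 4 regulators and the check genes. Replicate numbers in the sample titles are shared by the groups. Same-numbered arrays deviated together from their group means (r across genes = 0.38, 0.49 and 0.45, each above 0.1). Arrays with different numbers were not compared in this way, and the labels do not state that same-numbered cultures share an origin. With pairing thus possible but not stated, a second fit took replicate number as a block and is given where it changes a call. Standard errors, intervals and p-values are from the fit without the block unless the block is named. With the block the SE of every regulator was smaller, for Rbm38 0.19 against 0.31 and for Mbnl2 0.21 against 0.22. Of 14 alternatives, 6 left out 1 array each.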

Additional observations from a re-analysis of the deposited data

How the results depend on the processing

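No regulator passed an adjusted p of 0.05 under any of the 14 alternatives (limma, smallest 0.0864, Rbm38 with the replicate block), and Rbm24, Rbm38, Rbm20, Celf2, Celf1 and Mbnl1 kept their sign in all. The block changed no call among the regulators at an adjusted p of 0.05. Over all genes it gave 31 genes past the threshold and 2242 higher at an unadjusted p under 0.05, against 0 and 1034, and 0 and 1641 when the arrays were also quantile-normalized. With the block 1 spliced transcript (Nrap, 2.13) and 1 differentiation gene passed (Mef2c, outside the naming rule), and with the block after quantile normalization 0 of either list passed. Leaving out single arrays gave 0 to 28 genes past the threshold and 522 to 1592 higher at an unadjusted p under 0.05. It gave 2 to 4 regulators higher at that level (2 without control replicate 3, activated replicate 1 or activated replicate 2) and 0 to 1 spliced transcripts past the threshold (Dmd without activated replicate 3).

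After quantile normalization, with or without the block, and after cyclic loess, 3 regulators had no overlap between groups, against 6.36% and 6.53% of all genes. Both scalings without the block left 2 regulators at an unadjusted p under 0.05 (limma), where 4.00% and 4.20% of all genes were higher. SR proteins higher numbered 4 after median centring and 1 after quantile normalization, with or without the block, and after cyclic loess. Heterogeneous nuclear ribonucleoproteins higher numbered 3 in those quantile and loess settings, other splicing regulators higher 13 after median centring, and genes of dividing cells higher 0 after cyclic loess. Leaving out single arrays gave 7 to 13 other regulators, 0 to 4 SR proteins, 3 to 10 ribonucleoproteins and 0 to 2 genes of dividing cells higher.

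Signs turned for small differences. Median centring gave Mbnl3 0.086, Rbfox1 0.064 and Rassf5 0.0044. Quantile normalization, with or without the block, gave Mbnl2 -0.0037, Mbnl3 0.16, Ctnnb1 -0.35 and Myod1 -0.20, and cyclic loess gave Mbnl2 -0.089, Mbnl3 0.16, Rbfox2 -0.015, Ctnnb1 -0.39 and Myod1 -0.32. Leaving out single arrays turned Mbnl3 (-0.22 to 0.13), Rbfox1 (-0.27 to 0.29) and, outside the 10, Ctnnb1 (-0.17 to 0.33), Myod1 (-0.22 to 0.52), Rassf5 (-0.29 to 0.047), Cd200 (-0.31 to 0.030) and 1600020E01Rik (-0.14 to 0.17). The cause was not tested. Mbnl3 was not in the fit when dim genes were left out. The number of arrays limits the precision.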
